A study of Mus musculus with 12 samples.

Results

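The serine/arginine-rich (SR) splicing factors and the heterogeneous nuclear ribonucleoproteins (hnRNPs) were followed through the first 4 weeks of postnatal life in sorted cells of the mouse cerebellum. Genes were taken by symbol, as Srsf followed by a number or as any symbol starting with Hnrnp. This gave 11 SR genes (Srsf1 to Srsf7 and Srsf9 to Srsf12) and 20 hnRNP genes (Hnrnpa0, a1, a2b1, a3, ab, c, d, dl, f, h1, h2, h3, k, l, ll, m, r, u, ul1 and ul2), 31 of the 24421 entries in the table. All 31 were among the 15464 genes that reached a normalized count of 10 in at least 3 libraries and were tested. Cells carrying GFP were collected by flow cytometry from the cerebellum of Aldh1l1-GFP mice, in which regulatory sequence of the astrocyte gene Aldh1l1 drives the reporter, at 4 ages, written P1 (postnatal day 1), P7, P14 and P28. Each age had 3 libraries, all groups carried the same transgene on a C57/BL6J background with both sexes used, and no group received a treatment. Nothing in the sources used here states whether the 3 libraries of an age came from separate animals or pools, so p-values measure the spread between these libraries, which may be partly technical. Age is the only difference between groups that the labels give.

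SR proteins carry a single RNA recognition motif or a pair of them and a domain rich in arginine and serine. They bind exonic enhancers, help the spliceosome to recognise exons, and are moved between nuclear speckles and the transcripts by phosphorylation. The hnRNPs coat nascent transcripts and often act against SR proteins by silencing exons, and many also take part in the transport, stability or translation of mRNA. Both families are abundant in dividing and immature cells, and many members limit their own level by splicing a poison exon into their mRNA, which sends it to nonsense-mediated decay. The counts here are per gene, so productive and poison-exon transcripts cannot be told apart.

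Between 6399499 and 14733985 reads per library fell on genes, and the 31 genes took 21881 to 82843 of them. Values are normalized counts, in which the reads of a library were divided by its DESeq2 size factor. Correlations of log2 values between libraries of an age were lowest among the P28 libraries, at 0.849 to 0.862, and were 0.928 to 0.951 (P1), 0.950 to 0.965 (P7) and 0.899 to 0.913 (P14) in the others. The median coefficient of variation of the 31 genes between libraries was 15.2%, 6.46%, 13.1% and 23.6% in order of age, against 15.3%, 10.3%, 15.2% and 22.6% for 4358 genes with a mean normalized count of at least 500. Precision for the SR and hnRNP genes was thus best at P7 and poorest at P28.

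All 12 astrocyte marker genes listed were detected at each age, with a summed normalized count that was lowest in the P7 libraries, at 32915 to 61169, and was 74686 to 91661 (P1), 158694 to 195849 (P14) and 365563 to 427260 (P28) in the others. Markers of other cells changed as well. The sum over 18 replication and mitosis genes was highest in the P7 libraries, at 26306 to 33254, against 12309.7 to 20739.9 in those of P1, 1673 to 2545 (P14) and 984 to 1203 (P28). The sum over 10 oligodendrocyte markers peaked in the P14 libraries, at 349451 to 397877, after 1569.8 to 2646 (P1) and 22398 to 34556 (P7), and was 105832 to 146521 in those of P28. These were bulk libraries, so fewer cells of a type and less RNA per cell cannot be told apart.

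SR and hnRNP transcripts were most abundant at P7 and much less abundant at P14. Summed over the 31 genes, the share of reads grew from 0.541% ± 0.052 (SD, n = 3, as for all means below) in P1 libraries to 0.740% ± 0.019 at P7, and was 0.323% ± 0.011 and 0.272% ± 0.0034 at P14 and P28. The normalized counts summed to 48439 ± 3563, 63691 ± 2475, 33166 ± 783 and 32949 ± 1285 in the same order of ages, and the P7 sum was 1.92 times the P14 sum. SR genes summed to 12818 ± 475, 16484 ± 941, 9679 ± 719.9 and 8265 ± 949 at P1, P7, P14 and P28, and hnRNP genes to 35621 ± 3355, 47207 ± 1609, 23487 ± 271 and 24684 ± 339.9. In the share of reads of either family, the 3 P7 libraries lay above every other library and the 3 P14 libraries below every P1 library.

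Most of the genes showed this pattern singly. By mean log2 level, 27 of the 31 genes were highest at P7, an age at which 29.9% of all genes tested peaked, and the other 4 (Srsf5, Srsf12, Hnrnpf and Hnrnpul1) were highest at P1, as were 24.3% of all genes. None was highest at P14 or P28. The lowest mean fell at P14 for 13 genes and at P28 for 18, where 19.2% and 40.5% of all genes had their lowest value.

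**Figure D1:**
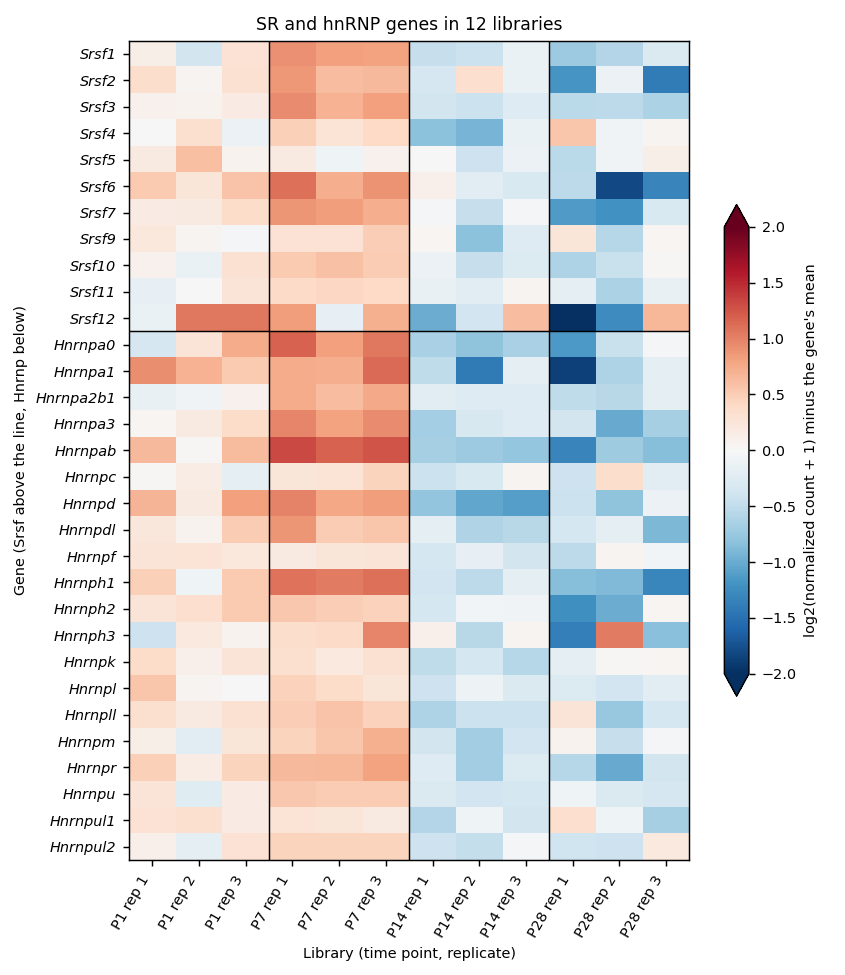
Heat map of the 31 genes (rows, Srsf above the line and Hnrnp below it) in the 12 libraries (columns, 3 per age). Colour gives log2(normalized count + 1) minus the mean of that gene over the 12 libraries, red for above and blue for below. The P7 columns are the reddest for most genes, and the P14 and P28 columns are mostly blue.

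From P1 to P7, 6 of the 31 genes rose and none fell. Adjusted p-values come from limma fitted to log2(normalized count + 1) of all genes tested, with Benjamini-Hochberg adjustment, and a gene was called at an adjusted p under 0.05. Over all genes, 3.47% were called higher at P7 and 4.24% lower, and among the 4358 genes with a mean of at least 500 normalized counts 7.66% were called higher. The 6 genes were Srsf1, Srsf3, Hnrnpa2b1, Hnrnpa3, Hnrnpab and Hnrnph1. At an unadjusted p under 0.05, 11 genes were higher and 0 lower in limma, against 9.64% and 9.67% of all genes tested. After adjustment edgeR and DESeq2 each called 6 of the 31 higher and 0 lower. Of all genes in its fit, edgeR called 3.14% higher and 3.88% lower, and DESeq2 called 4.31% and 4.89%. The 3 P7 libraries lay above the 3 P1 libraries without overlap in 21 of the 31 genes, where 20.1% of all genes did so. The log2 fold change was above 0 in 27 genes (52.2% of all genes), with a median of 0.38 over the 31 genes and 0.037 over all genes tested.

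Hnrnpa2b1, which binds exons and also carries mRNAs such as that of myelin basic protein along cell processes, had the highest level per kb of exon among the 6. Its normalized counts were 3605, 3810.3 and 4276 at P1, 6714, 6193 and 6810.4 at P7, 3485, 3377 and 3361 at P14 and 2810.2, 2728 and 3505 at P28. All 3 P7 libraries were above all others, the P1 libraries came next, and the P14 and P28 libraries overlapped. Hnrnpa2b1 rose by 0.76 on the log2 scale from P1 to P7 (SE 0.14, limma adjusted p = 0.00356) and fell by 0.95 from P7 to P14 (SE 0.14, limma adjusted p = 0.000212). The rise was called whichever library was left out.

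Hnrnph1 recognises runs of guanine in exons and introns. It was at 3985, 2694 and 4112 at P1, 6035, 5875 and 6143 at P7, 2190.1, 1992 and 2489 at P14 and 1586, 1556 and 1151 at P28. The P7 libraries were again the highest, 1 P1 library was well below the other two, and the P28 libraries were the lowest. Its change from P1 to P7 was 0.77 (SE 0.18, limma adjusted p = 0.0191), and from P7 to P14 it fell by 1.44 (SE 0.18, limma adjusted p = 6.74e-05).

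Hnrnpab and Hnrnpa3 are relatives of Hnrnpa2b1 in the A/B group, and Hnrnpab also takes part in mRNA trafficking. Hnrnpab was at 1475, 959 and 1455 at P1, 2350.4, 2145 and 2253 at P7, 596, 568 and 548 at P14 and 376, 576 and 519 at P28. Hnrnpa3 was at 1164, 1282 and 1464 at P1, 2233, 1976 and 2191 at P7, 712, 906 and 951 at P14 and 886, 564 and 717 at P28. In both, every P7 library exceeded every P1 library, and no P14 or P28 library reached the P1 range. Hnrnpab rose by 0.82 from P1 to P7 (SE 0.21, limma adjusted p = 0.0271) and Hnrnpa3 by 0.71 (SE 0.20, limma adjusted p = 0.0381). From P7 to P14 Hnrnpab fell by 1.98 (SE 0.21, limma adjusted p = 1.43e-05) and Hnrnpa3 fell by 1.33 (SE 0.20, limma adjusted p = 0.00023).

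Srsf1, the prototype SR protein and a known oncogene product when overproduced, and Srsf3, the smallest SR protein and an adaptor for mRNA export, were the SR genes of this set. Srsf1 was at 1473, 1052 and 1661 at P1, 2561, 2392 and 2363 at P7, 984, 1008 and 1239 at P14 and 818, 901 and 1108 at P28. Srsf3 was at 1313, 1295 and 1382 at P1, 2367, 1988 and 2178 at P7, 952, 913 and 1032 at P14 and 846, 856 and 791 at P28. The P1 libraries of Srsf3 lay close together, and those of Srsf1 were spread more widely. Srsf1 rose by 0.83 (SE 0.19, limma adjusted p = 0.0165) and Srsf3 by 0.71 (SE 0.15, limma adjusted p = 0.00858) from P1 to P7. They then fell by 1.19 (SE 0.19, limma adjusted p = 0.000542) and 1.17 (SE 0.15, limma adjusted p = 6.62e-05).

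Each call from P1 to P7, that of Hnrnpa2b1 excepted, was lost in at least 1 fit with a library left out. With P1 replicate 2 left out, 2 genes remained called, and with P7 replicate 1, 2 or 3 left out 1, 2 and 2 did. Without P1 replicate 2 the adjusted p was 0.0784 for Srsf1, 0.107 for Hnrnpa3, 0.129 for Hnrnpab and 0.0866 for Hnrnph1. Leaving out P7 replicate 1, 2 or 3 gave 0.0696, 0.0536 and 0.0561 for Srsf1, 0.132, 0.0828 and 0.134 for Hnrnpa3, 0.101, 0.0763 and 0.0979 for Hnrnpab, and 0.0634, 0.0545 and 0.0765 for Hnrnph1. Srsf3 was lost only without P7 replicate 1 (adjusted p = 0.0558), and Hnrnpa3 also without P1 replicate 1 (0.155) or P14 replicate 2 (0.0511). All of these fold changes stayed above 0.

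**Figure D2:**
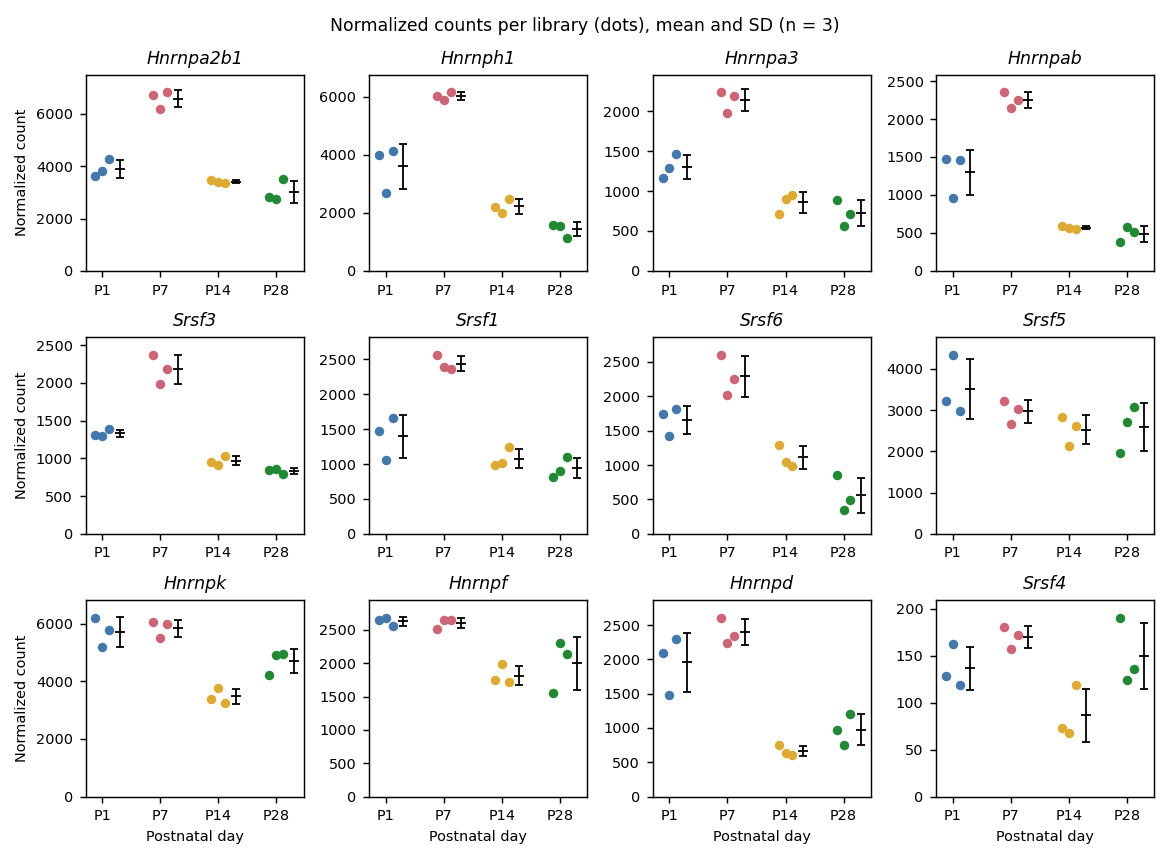
Normalized counts (vertical axes, from 0) of 12 SR and hnRNP genes at P1, P7, P14 and P28, with 1 dot per library and the mean and SD (n = 3) beside the dots. In the first 6 panels, the genes called both from P1 to P7 and from P7 to P14, the P7 dots stand above all others, whereas Srsf5 ranges from 1947 to 4331 with overlap between ages, and the P1 and P7 dots of Hnrnpk and Hnrnpf overlap.

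The promoters of these 6 genes are shown because the genes moved together in both steps. The sequences are from RefSeq on GRCm38.p6, 250 bases before the annotated start, 5′ to 3′ on the strand of the gene, with the letters of any searched motif in capitals. For Srsf3 the last 32 bases were left out, since GENCODE places them in the transcript.
Srsf1 (chr11:88047123-88047372, plus strand): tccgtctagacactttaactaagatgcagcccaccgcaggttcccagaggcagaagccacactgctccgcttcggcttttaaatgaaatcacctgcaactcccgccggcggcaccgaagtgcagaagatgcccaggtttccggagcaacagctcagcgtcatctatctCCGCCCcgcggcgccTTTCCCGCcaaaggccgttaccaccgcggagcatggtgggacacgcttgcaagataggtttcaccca
Srsf3 (chr17:29032410-29032627, plus strand): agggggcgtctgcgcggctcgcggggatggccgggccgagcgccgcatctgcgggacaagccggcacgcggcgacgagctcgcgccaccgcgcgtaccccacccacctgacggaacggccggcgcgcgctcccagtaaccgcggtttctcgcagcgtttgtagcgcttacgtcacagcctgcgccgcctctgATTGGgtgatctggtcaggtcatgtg
Hnrnpa2b1 (chr6:51469895-51470144, minus strand): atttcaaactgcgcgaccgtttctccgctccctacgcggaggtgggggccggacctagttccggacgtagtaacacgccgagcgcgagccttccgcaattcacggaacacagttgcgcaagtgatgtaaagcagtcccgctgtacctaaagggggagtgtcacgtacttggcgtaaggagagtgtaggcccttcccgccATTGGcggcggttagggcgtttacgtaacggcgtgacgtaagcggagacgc
Hnrnpa3 (chr2:75659009-75659258, plus strand): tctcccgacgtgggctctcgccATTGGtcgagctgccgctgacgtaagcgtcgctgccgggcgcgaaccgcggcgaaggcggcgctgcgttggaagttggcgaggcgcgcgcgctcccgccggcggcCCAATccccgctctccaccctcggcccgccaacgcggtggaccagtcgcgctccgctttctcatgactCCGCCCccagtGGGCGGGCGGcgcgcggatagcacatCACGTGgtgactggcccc
Hnrnpab (chr11:51606882-51607131, minus strand): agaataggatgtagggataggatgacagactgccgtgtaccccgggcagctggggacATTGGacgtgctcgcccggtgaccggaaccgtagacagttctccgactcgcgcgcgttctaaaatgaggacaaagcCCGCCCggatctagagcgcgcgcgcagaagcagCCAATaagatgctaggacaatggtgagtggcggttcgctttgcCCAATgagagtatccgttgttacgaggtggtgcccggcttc
Hnrnph1 (chr11:50376740-50376989, plus strand): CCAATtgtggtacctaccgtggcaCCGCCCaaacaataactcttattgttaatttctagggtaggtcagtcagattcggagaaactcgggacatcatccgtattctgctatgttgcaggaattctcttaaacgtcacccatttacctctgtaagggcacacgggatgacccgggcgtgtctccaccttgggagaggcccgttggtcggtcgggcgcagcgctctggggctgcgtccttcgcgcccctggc

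The motifs were searched on both strands as exact letters. The TATA box was searched as TATAAA, the CCAAT box by the letters of its name, the GC box as GGGCGG and the ETS core as CCGGAAG. The E box was searched as CACGTG, and further words were TGACGTCA for the cAMP response element, AAGATGGC for YY1, the palindromes of NRF1 and ZBTB33, and for E2F any of TTTCCCGC, TTTCGCGC, TTTGCCGC and TTTGGCGC. A CCAAT box stood in 5 of the 6 windows, Srsf1 being the exception, at 51 bases before the start in Hnrnpa2b1 and at 41, 84 and 193 in Hnrnpab. GC boxes stood in Srsf1, Hnrnpa3, Hnrnpab and Hnrnph1, and those at 44 and 40 bases before the start of Hnrnpa3 overlap each other. Srsf1 held an E2F word at 67 bases and Hnrnpa3 an E box at 18 bases. Srsf3 held the letters of a TATA box at 18 bases before the RefSeq start, in the stretch not shown. By the GENCODE start these letters lie inside the transcript.

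Promoter windows were found for 29 of the 31 genes, all but Hnrnpll and Hnrnpul2. For these 29 the RefSeq start nearest the gene start in GENCODE was taken. For the genes tested and all genes it was the first start listed for each gene. The windows compared were thus not chosen alike, and the effect of this choice was not tested. The median GC content of the 29 windows was 65.2%, against 59.6% over the windows of 11566 genes tested and 52.0% over all 27025 genes. The ratio of CpG seen to CpG given by the base content had a median of 0.979 in the 29 windows, 0.704 in genes tested and 0.378 in all genes. A GC box was present in 23 of 29 windows (79.3%, against 57.5% of genes tested and 32.9% of all), and a CCAAT box in 15 (51.7%, against 35.9% and 34.5%). The ETS core was in 6 (20.7%, against 12.4% and 7.05%), and an E2F word in 3 (10.3%, against 3.20% and 1.91%), namely Srsf1, Srsf10 and Hnrnpul1. TATA boxes were in 3 (10.3%, against 6.65% and 13.0%), among them that of Srsf3, which GENCODE places inside the transcript. E boxes were in 2 (6.90%, against 8.09% and 6.05%) and the YY1 word in 1 (3.45%, against 1.94% and 1.59%). The cAMP response element, NRF1 and ZBTB33 words were in 0 of 29, where 2.69%, 1.49% and 0.787% of genes tested held them. In GENCODE the window of Srsf1 overlaps the antisense lincRNA 2010015M23Rik and that of Srsf3 the lncRNA Gm16196. A match of letters is a description of these windows and does not show binding.

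The second postnatal week brought the largest change of the 4 comparisons made. From P7 to P14, 20 of the 31 genes fell and none rose, with 10.0% of all genes tested called lower and 10.8% higher, and 17.5% called lower among genes with a mean of at least 500. The 20 were 5 of 11 SR and 15 of 20 hnRNP genes. All 31 log2 fold changes were below 0, as were 53.9% of all genes, and they stayed below 0 in each alternative fit that gave a value. The 3 P14 libraries lay below the 3 P7 libraries without overlap in 29 genes (24.8% of all genes did so), Srsf5 and Srsf12 being the exceptions. Of the 31 genes, 0 were higher and 27 lower at an unadjusted p under 0.05 in limma, against 15.6% and 16.4% of all genes tested. After adjustment edgeR called 0 higher and 19 lower, against 11% and 8.59% of all genes in its fit. DESeq2 called 0 higher and 22 lower, against 10.2% and 9.27%. The median log2 fold change was -0.95 (range -1.98 to -0.24) over the 31 genes and -0.086 over all genes tested.

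**Figure D3:**
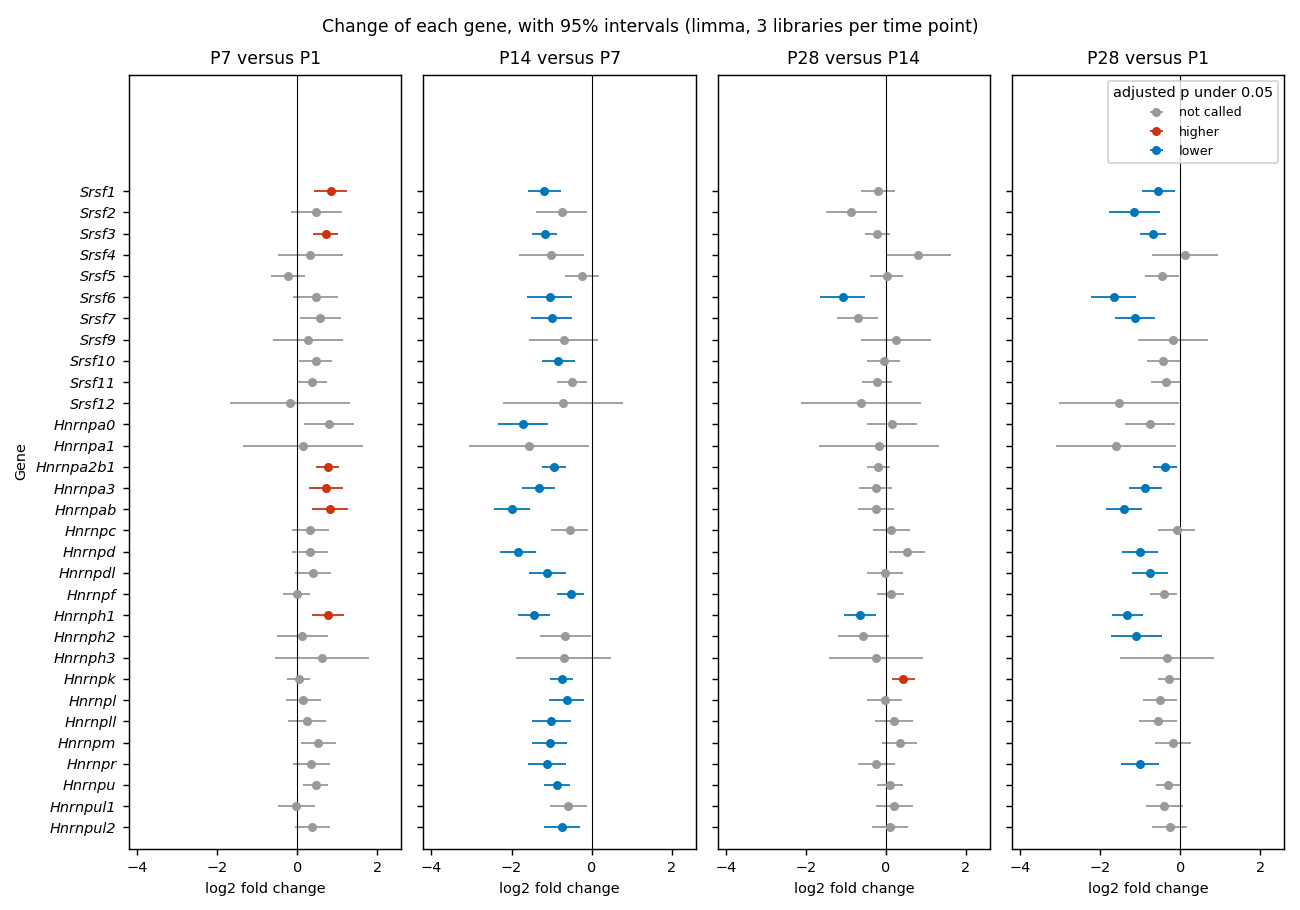
Log2 fold change (horizontal axes, later minus earlier age) of each of the 31 genes in the 4 comparisons, with 95% intervals from limma and colour for the call at an adjusted p under 0.05. In P14 versus P7 all 31 points lie left of 0 and 20 are called lower, while in P28 versus P14 most intervals include 0.

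The hnRNP A/B and D group, proteins with a pair of RNA recognition motifs that bind AU-rich or UAG-like elements, had 6 of its 7 genes called, and held the 3 largest falls called in the 31 genes (Hnrnpab, Hnrnpd and Hnrnpa0). The 7th gene, Hnrnpa1, was not called and its level is uncertain. After Hnrnpab, the largest was in Hnrnpd, known as AUF1, which binds AU-rich elements and speeds the decay of mRNAs that carry them. Hnrnpd was at 2097, 1475 and 2299 at P1, 2603, 2239 and 2335 at P7, 753, 633 and 611 at P14 and 965, 751 and 1205 at P28. Its change from P1 to P7 was not called (log2 fold change 0.31, 95% interval -0.14 to 0.76), and it fell by 1.85 from P7 to P14 (SE 0.21, limma adjusted p = 2.43e-05). The P14 and P28 libraries together were all below the P1 and P7 libraries.

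Hnrnpa0, another AU-rich element binder, was at 683, 1031 and 1442 at P1, 1947, 1530.0 and 1799 at P7, 551, 496 and 547 at P14 and 387, 633 and 853 at P28. It was uneven at P1, from 683 to 1442, and the 3 P14 libraries lay between 496 and 551. It fell by 1.72 from P7 to P14 (SE 0.29, limma adjusted p = 0.000711). Hnrnpdl, a close relative of Hnrnpd, was at 1771, 1586 and 2143 at P1, 2788, 2144 and 2220.0 at P7, 1319, 995 and 1022 at P14 and 1184, 1330.4 and 806 at P28. It fell by 1.10 (SE 0.21, limma adjusted p = 0.00176), with no overlap between P7 and P14.

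Among the other SR genes, Srsf6, Srsf7 and Srsf10 fell at this step. Srsf6 acts on tau and other exons and was at 1738, 1428 and 1808 at P1, 2598, 2017 and 2250.2 at P7, 1297, 1048 and 985 at P14 and 848, 348 and 484 at P28. Srsf7, which differs from other SR proteins by a zinc knuckle, was at 840.4, 849.5 and 966 at P1, 1385, 1341 and 1233 at P7, 724, 542 and 735 at P14 and 341, 322 and 603 at P28. In both genes the P14 libraries were below all P1 and P7 libraries. Srsf6 fell by 1.05 (SE 0.26, limma adjusted p = 0.0106) and Srsf7 by 1.00 (SE 0.24, limma adjusted p = 0.00778). Without P7 replicate 1 the adjusted p of Srsf6 was 0.0529.

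Srsf10, which turns into a general splicing repressor when it loses its phosphates, was at 1323, 1143 and 1549 at P1, 1803, 1881 and 1788 at P7, 1153, 906 and 1036 at P14 and 818, 924 and 1277 at P28. The P7 libraries stood close together and above all others. Srsf10 fell by 0.83 (SE 0.19, limma adjusted p = 0.0066). The lowest P14 value was 906 and the lowest P28 value 818, so that these ages overlapped.

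Hnrnpr and Hnrnpll fell by about the same amount. Hnrnpr, which binds the survival motor neuron protein and is found in axons, was at 857, 684 and 844 at P1, 974, 975 and 1082 at P7, 516, 379.8 and 510.4 at P14 and 415, 307 and 479 at P28. Hnrnpll, known for the exon choice of CD45 in lymphocytes, was at 1062, 962 and 1053 at P1, 1203, 1275 and 1178 at P7, 557, 630.5 and 636 at P14 and 1024, 504 and 667 at P28. Every P14 library of both was below every P1 library. Hnrnpr fell by 1.12 (SE 0.22, limma adjusted p = 0.00214) and Hnrnpll by 1.00 (SE 0.22, limma adjusted p = 0.00509). Hnrnpl, which binds CA repeats, was at 960.4, 674 and 653 at P1, 901, 839 and 769.7 at P7, 489, 609 and 533 at P14 and 538, 497 and 556 at P28. Its fall of 0.62 (SE 0.20, limma adjusted p = 0.0408) had the highest adjusted p of the 20 and was not called without P7 replicate 1, 2 or 3 (adjusted p 0.148, 0.108 and 0.081) or P14 replicate 1, 2 or 3 (0.123, 0.0506 and 0.0883), or with edgeR under TMM (0.0642) or DESeq2 size factors (0.0508).

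Hnrnpm, a binder of GU-rich sequence, was at 829, 657 and 904 at P1, 1039, 1126 and 1254 at P7, 593, 472 and 588 at P14 and 807, 557 and 749 at P28 and fell by 1.05 (SE 0.21, limma adjusted p = 0.00217). Hnrnpk binds runs of cytosine in RNA and DNA through KH domains. It was at 6198, 5182 and 5766 at P1, 6043, 5497 and 5982 at P7, 3393, 3778 and 3255 at P14 and 4231, 4922 and 4964 at P28. P1 and P7 overlapped for Hnrnpk, the P14 libraries were the lowest, and those of P28 lay between. It fell by 0.75 from P7 to P14 (SE 0.13, limma adjusted p = 0.00105).

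Hnrnpu, a nuclear scaffold protein that binds chromatin and RNA, was at 4576, 3207 and 4287 at P1, 5545, 5396 and 5431 at P7, 3122, 2936 and 2973 at P14 and 3589, 3122 and 3025 at P28. It fell by 0.86 (SE 0.15, limma adjusted p = 0.000887), and the P14 and P28 libraries overlapped. Its relative Hnrnpul2 was at 1184, 957 and 1339.5 at P1, 1490.5, 1492 and 1491 at P7, 826, 792 and 1086 at P14 and 834, 827 and 1264 at P28. The 3 P7 libraries of Hnrnpul2 were nearly equal. The fall was 0.74 (SE 0.21, limma adjusted p = 0.0203), with an adjusted p of 0.0638, 0.057 and 0.0646 without P7 replicate 1, 2 or 3 and 0.0692 and 0.0809 without P14 replicate 1 or 2.

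Hnrnpf, the partner of Hnrnph1 in binding guanine runs, was at 2649, 2680.0 and 2559 at P1, 2510.4, 2642 and 2653 at P7, 1747, 1984 and 1714 at P14 and 1548, 2303 and 2139 at P28. P1 and P7 overlapped and the P14 libraries were lower. The fall of 0.52 (SE 0.16, limma adjusted p = 0.0312) was the smallest of the 20 and was not called without P7 replicate 1, 2 or 3 (0.0742, 0.0832 and 0.102) or P14 replicate 1 or 3 (0.0871 and 0.0902).

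The 11 genes not called from P7 to P14 were Srsf2, Srsf4, Srsf5, Srsf9, Srsf11, Srsf12, Hnrnpa1, Hnrnpc, Hnrnph2, Hnrnph3 and Hnrnpul1. Srsf4, Srsf9, Srsf12 and Hnrnph3 had means of 55.7 to 180.2 normalized counts at each age, and their 95% intervals were wide, as in Srsf4 (-1.82 to -0.20 around -1.01). Srsf2, Srsf11, Hnrnpc and Hnrnpul1 had log2 fold changes of -0.75, -0.50, -0.55 and -0.58 with limma adjusted p-values of 0.091, 0.0566, 0.0844 and 0.0743. Srsf11 and Srsf4 were called by DESeq2 (adjusted p = 0.0419 and 0.0153). A p that misses the threshold does not show that these genes were level.

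Srsf5, which was first described among genes induced in regenerating liver and is the most abundant SR gene per length here, moved least in this step. It was at 3229, 4331 and 2967 at P1, 3219, 2672 and 3016 at P7, 2822, 2129 and 2619 at P14 and 1947, 2715 and 3085 at P28. The ages overlapped, and 1 P1 library was above the rest. The log2 fold change from P7 to P14 was -0.24 (95% interval -0.66 to 0.18), an interval that does not reach the median of the 31 genes. From P1 to P28 it was -0.45 (interval -0.87 to -0.028, limma adjusted p = 0.0912).

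From P14 to P28 few of the genes changed. Hnrnpk rose, Srsf6 and Hnrnph1 fell, and the other 28 were not called, with 5.68% of all genes called higher and 8.76% lower. At an unadjusted p under 0.05 in limma, 2 of the 31 genes were higher and 4 lower, against 12% and 18% of all genes tested. The median log2 fold change was -0.055 over the 31 genes, -0.21 over SR genes, 0.036 over hnRNP genes and -0.12 over all genes tested. Libraries of the 2 ages did not overlap in 2 genes higher at P28 and 3 lower, where 11.7% and 14.5% of all genes did so. Under TMM scaling in limma, edgeR with TMM and edgeR with DESeq2 size factors the split was 0 higher and 2 lower, and with library totals alone 0 higher and 5 lower.

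Srsf6 fell a second time, by 1.08 (SE 0.26, limma adjusted p = 0.0154), to 848, 348 and 484 in the P28 libraries. Its adjusted p was 0.0632 without P14 replicate 1 and 0.119 with only the P14 and P28 libraries in the limma fit. Hnrnph1 fell by 0.64 (SE 0.18, limma adjusted p = 0.0314), with adjusted p-values of 0.0764, 0.114 and 0.0915 without P14 replicate 1, P14 replicate 3 or P28 replicate 3. With only the P14 and P28 libraries in the limma fit, its adjusted p was 0.0960. The rise of 0.44 in Hnrnpk (SE 0.13, limma adjusted p = 0.0419) was lost in 16 of 23 alternatives, among them those without P1 replicate 1 or 3, P7 replicate 1 or 3, P14 replicate 1, 2 or 3, or P28 replicate 2 or 3 (adjusted p 0.0502 to 0.125). Hnrnpk at P28 was at 4231, 4922 and 4964, above 3393, 3778 and 3255 at P14 without overlap. Hnrnpd had a log2 fold change of 0.53 (SE 0.21, limma adjusted p = 0.107) and was called only without P28 replicate 2 (adjusted p = 0.0373).

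Over the whole period from P1 to P28, 13 of the 31 genes fell and none rose, against 20.0% and 14.6% of all genes tested. Among genes with a mean of at least 500, 18.3% were lower. Of the 31 genes, 0 were higher and 21 lower at an unadjusted p under 0.05 in limma, against 18.5% and 26.2% of all genes tested. After adjustment edgeR called 0 higher and 12 lower, against 15.9% and 16% of all genes in its fit. DESeq2 called 0 higher and 14 lower, against 14.1% and 15.8%. The 13 were Srsf1, Srsf2, Srsf3, Srsf6, Srsf7, Hnrnpa2b1, Hnrnpa3, Hnrnpab, Hnrnpd, Hnrnpdl, Hnrnph1, Hnrnph2 and Hnrnpr. The largest change was that of Srsf6, which fell by 1.66 (SE 0.26, limma adjusted p = 0.000258), while Hnrnpab fell by 1.40 (SE 0.21, limma adjusted p = 0.000161) and Hnrnph1 fell by 1.32 (SE 0.18, limma adjusted p = 8.42e-05). The fold change was below 0 in 30 genes, all but Srsf4 (58.0% of all genes), the median was -0.55 over the 31 genes and -0.24 over all genes, and the P28 libraries lay below the P1 libraries without overlap in 16 (24.0% of all genes did so). The 4 comparisons share libraries, so their counts are not independent.

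Srsf2, also called SC35, is an SR protein with 1 RNA recognition motif. It was at 774, 630.2 and 752 at P1, 1107, 927 and 949 at P7, 482, 768 and 551 at P14 and 266, 558 and 229 at P28. It peaked at P7 and was low in 2 of the 3 P28 libraries. It fell by 1.14 between P1 and P28 (SE 0.30, limma adjusted p = 0.0086) but was called in none of the consecutive steps. Hnrnph2, an X-linked relative of Hnrnph1, was at 440.5, 467 and 532 at P1, 539, 519.6 and 510.0 at P7, 289, 357 and 352 at P14 and 158, 185 and 380.0 at P28, with 1 P28 library well above the other two. It fell by 1.10 (SE 0.30, limma adjusted p = 0.0112).

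Some of these falls rested on thin margins. Srsf1 fell by 0.55 (SE 0.19, limma adjusted p = 0.0396), and its adjusted p ran from 0.0521 to 0.164 without P1 replicate 1 or 3, P7 replicate 1, 2 or 3, or P28 replicate 1 or 2. Hnrnpa2b1 fell by 0.38 (SE 0.14, limma adjusted p = 0.0475) and lost its call in 19 of 23 alternatives, including 11 of the 12 in which a library was left out (0.0527 to 0.161), the exception being P28 replicate 3. Hnrnpdl fell by 0.75 (SE 0.21, limma adjusted p = 0.0133), with an adjusted p of 0.0632 without P1 replicate 3. Hnrnpa3 fell by 0.87, Hnrnpd by 1.01, Hnrnpr by 1.01, Srsf3 by 0.68 and Srsf7 by 1.13, with limma adjusted p-values of 0.00344, 0.00203, 0.00286, 0.00299 and 0.00224.

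Scaling bears on these counts. With library totals in place of size factors the median of all genes shifted by -0.25 from P7 to P14 and by -0.42 from P1 to P28. Of the 31 genes, 27 were then called lower at P28 than at P1. The share of all genes called lower with library totals was not taken, so this count has no base beside it. Relative to the median of all genes, the median of the 31 was then -0.86 from P7 to P14 and -0.32 from P1 to P28, where it was -0.86 and -0.31 with size factors. From P14 to P28 the median of the 31 relative to all genes was 0.067 with size factors in limma and 0.067 with TMM scaling in limma. It was -0.024 with edgeR under TMM, -0.023 with edgeR under DESeq2 size factors, -0.036 with DESeq2 and -0.10 in limma when each of the 12 libraries had to hold 10 reads or more of a gene, with the median of all genes shifted by 0.10, 0.11, 0.12 and 0.18. Its sign thus turned with the count tools and with the filter on low genes, and not with TMM scaling in limma.

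Levels can be set between genes per kilobase of exon, with the union of the exons of protein-coding transcripts in GENCODE as the length. Reads were counted on UCSC transcripts, whose lengths may differ, and the effect of this on ranks and shares was not tested. Among the SR genes, Srsf5 led at each age, with 2119 ± 437, 1793 ± 167, 1524 ± 215 and 1559 ± 351 normalized counts per kb from the youngest to the oldest, which was 42.7%, 30.5%, 41% and 47.6% of the SR total per kb. Srsf3 followed at P7 with 832 ± 72.4, and at P14 and P28 Srsf11 was next with 452 ± 45.4 and 391 ± 67.6. Srsf11 and Srsf3 overlapped over libraries at P28 (317 ± 13.4 for Srsf3) and at P1. Srsf6 was at rank 4 at P1, P7 and P14 and at rank 8 at P28 (152 ± 70), though Srsf1, Srsf2, Srsf7 and Srsf10 overlapped with it there. Srsf12 was the lowest at each age.

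Among the hnRNP genes, Hnrnpa2b1 was first at each age, with 1601 ± 141, 2700.3 ± 136, 1400.0 ± 27.8 and 1238 ± 175 normalized counts per kb in order of age. Hnrnph1 ranked second at P1, P7 and P14 (1432 ± 313, 2397 ± 53.7 and 886 ± 99.7) and at rank 4 at P28 (569.8 ± 96.7). Hnrnpk was second at P28 with 1146 ± 100.3, which overlapped with Hnrnpa2b1, and it had overlapped with Hnrnph1 at P1 and P14. The share of the hnRNP total taken by Hnrnph1 was 17.6% at P7 and 8.43% at P28, and that of Hnrnpk 10.4% and 16.9%. Hnrnpr was at rank 19 per kb at each age, with a length of 21483 bases of annotated exon.

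**Figure D4:**
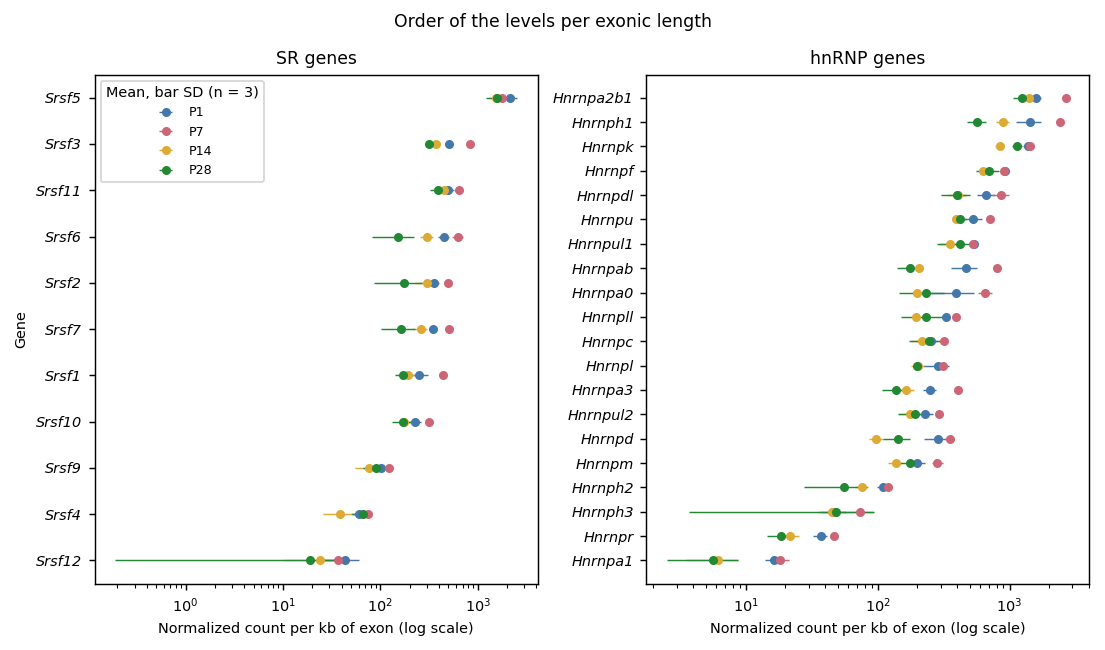
Mean normalized count per kb of exon (horizontal axes, log scale) of the SR genes (left) and hnRNP genes (right) at the 4 ages, with bars for the SD (n = 3) and genes in order of their mean over all libraries. Srsf5 and Hnrnpa2b1 stand at the top of the 2 families, and Srsf12 and Hnrnpa1 at the bottom.

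The log2 ratio of relatives within each library was taken for 6 pairs and is given as a description. It moved with age in some pairs and over some steps, and was nearly level in others. The ratio of Hnrnph1 to Hnrnpf was 0.43 ± 0.37, 1.21 ± 0.056, 0.29 ± 0.27 and -0.47 ± 0.47 in order of age. All 3 P7 libraries were above the other 9 in this ratio, and all 3 P28 libraries were below the P7 libraries. The ratio of Srsf6 to Srsf5 was -1.07 ± 0.47, -0.38 ± 0.061, -1.18 ± 0.20 and -2.28 ± 0.94, with the P7 libraries above all others. The ratio of Hnrnpa2b1 to Hnrnpa3 was level early, at 1.58 ± 0.044 at P1 and 1.62 ± 0.032 at P7, and 2.00 ± 0.25 and 2.08 ± 0.36 later. The ratio of Hnrnpab to Hnrnpd was -0.60 ± 0.079, -0.087 ± 0.052, -0.22 ± 0.10 and -0.98 ± 0.53, again in order of age. The ratio of Srsf3 to Srsf7 was nearly level from P1 to P14, at 0.59 ± 0.066, 0.72 ± 0.13, 0.54 ± 0.19 and 1.04 ± 0.56 in order of age. That of Hnrnph1 to Hnrnph2 was 2.88 ± 0.33, 3.52 ± 0.057, 2.74 ± 0.23 and 2.66 ± 0.93, with the P7 mean above the other 3.

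Some values depend on how reads of similar or overlapping genes were assigned, which is not stated in the sources used here. Hnrnpa1, elsewhere a major hnRNP, had only 36.3, 30.7 and 27.3 at P1, 31.8, 31.4 and 41.9 at P7, 12.7, 6.35 and 16.3 at P14 and 4.38, 11.8 and 16.2 at P28 normalized counts, and 44.8% of its stretches of 75 bases also occur in transcripts of 14 other genes. The copy that shares most, Gm10052, was listed at 0 reads in all 12 libraries. Another of these genes, Gm5643, held 8 to 171 reads per library, where Hnrnpa1 itself held 3 to 59. The level of Hnrnpa1 is thus uncertain, and its changes (-1.57 from P7 to P14, limma adjusted p = 0.136) are not read further. The shared part was 39.0% in Hnrnpf, 26.9% in Hnrnpa3, 25.2% in Srsf3, 18.2% in Srsf5, 17.0% in Hnrnpk, 11.1% in Hnrnph2 and 10.4% in Srsf10, and under 5% in the other 23. Srsf2, Srsf4, Hnrnpab, Hnrnph3, Hnrnpk and Hnrnpu overlap, in their exons, genes of the other strand that have an entry in the counts. Srsf1, Hnrnpd, Hnrnpf, Hnrnpl and Hnrnpr overlap genes of the other strand that have no entry under their symbol. The same holds for Hnrnpa3, Hnrnpm and Hnrnpul2 with genes of their own strand. Whether strand was used in counting is not stated either.

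Of the genes that start within 1000 bases of one of the 31 and run the other way, 8 were tested. Cbx3, a heterochromatin protein gene 466 bases from the start of Hnrnpa2b1, was at 1546 ± 47.4, 2282 ± 220.2, 1036 ± 59.6 and 1443 ± 386 normalized counts at the 4 ages. It changed by 0.56 from P1 to P7 (limma adjusted p = 0.0835) and fell by 1.14 from P7 to P14 (4.51e-04). Cbx5, a relative that starts 616 bases from Hnrnpa1, fell by 0.89 from P7 to P14 (0.00132) and by 0.55 from P1 to P28 (0.0175). The other 6 were not called in any comparison.

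In 6 lists of other genes of the splicing machinery, drawn up by function, the share called lower from P7 to P14 ran from 6.67% to 44.4%, where 10.0% of all genes were called lower and 10.8% higher. From P7 to P14, 8 of 18 hnRNP proteins under other symbols fell (44.4%) and 0 rose, 7 of 21 SR-related coactivators fell (33.3%) and 1 rose, 6 of 43 spliceosomal snRNP proteins fell (13.95%) and 0 rose, and 2 of 12 SR protein kinases and importins fell (16.7%) and 0 rose. Among tissue-restricted splicing regulators 10 of 29 fell (34.5%) and 4 rose (13.8%), and among genes of nonsense-mediated decay and the exon junction complex 1 of 15 fell (6.67%) and 0 rose. In the share called lower alone, the snRNP, decay, and kinase and importin lists were thus nearest to all genes. Their fold changes were below 0 in 37 of 43, 13 of 15 and 9 of 12 genes, where 53.9% of all genes were. The median log2 fold changes of the 6 lists were -0.64, -0.37, -0.57, -0.15, -0.76 and -0.56 in the order given. Each was above the -0.95 of the 31 genes and below the -0.086 of all genes. From P1 to P7, 1 of 18 hnRNP proteins under other symbols rose and 1 fell, 1 of 21 coactivators rose, 8 of 29 tissue-restricted regulators rose and 1 fell, 1 of 15 decay genes rose, and no kinase, importin or snRNP gene was called, where 3.47% of all genes rose and 4.24% fell.

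In the next sentences a value in parentheses after a change is its limma adjusted p. Ptbp1, the hnRNP I gene that represses neuronal exons, was at 4790.5 ± 585, 4209.9 ± 122, 1937 ± 190.0 and 3216 ± 340.0 at the 4 ages. It fell by 1.12 from P7 to P14 (limma adjusted p = 7.78e-05) and rose by 0.73 from P14 to P28 (0.00554). Rbmx, the hnRNP G gene, rose by 0.94 from P1 to P7 (0.0395) and fell by 1.72 from P7 to P14 (0.00028). Tnpo3, the importin that carries phosphorylated SR proteins into the nucleus, fell by 1.35 (0.00119), as did Tnpo1, the importin of the M9 signal of hnRNP A proteins, by 0.94 (0.00253).

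Clk1, a kinase that phosphorylates SR proteins, was at 2698 ± 246 at P7 and 2707 ± 618 at P14 (limma adjusted p = 0.961) and fell by 0.74 from P14 to P28 (0.0148). Srrm2, a large scaffold of nuclear speckles, fell by 0.44 from P7 to P14 (0.0314), while its speckle partner Son changed by -0.076 (0.771). Sf3b1 and Prpf8, core proteins of the spliceosome, fell by 0.63 and 0.65 (0.0107 and 0.0223). Qk, a regulator needed for glial splicing and myelin, went the other way, falling by 1.03 from P1 to P7 (0.000677) and rising by 0.80 from P7 to P14 (0.00132). Celf2 rose by 0.54 (0.0362) and then fell by 1.44 (9.67e-06), in the direction of the 6 SR and hnRNP genes called in both steps.

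From P14 to P28, 4 of 18 hnRNP proteins under other symbols rose and 0 fell, 1 of 43 snRNP genes rose and 3 fell, 1 of 12 kinases and importins rose and 1 fell, and 8 of 29 tissue-restricted regulators fell and 0 rose. No coactivator or decay gene was called at that step, where 5.68% of all genes rose and 8.76% fell. Msi1, an RNA-binding protein of neural progenitors and astrocytes, rose by 1.66 (0.00211). From P1 to P28, 12 of 43 snRNP genes, 7 of 18 hnRNP proteins under other symbols, 5 of 21 coactivators, 8 of 29 tissue-restricted regulators and 2 of 15 decay genes fell, and 0, 0, 1, 4 and 1 rose. Of all genes 20.0% fell and 14.6% rose between these ages.

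Marker genes of several cell types changed at each step. From P1 to P7, when the median change of the 31 genes was 0.38, 9 of 10 oligodendrocyte markers, 6 of 12 neuron markers, 4 of 8 markers of granule neuron precursors, 3 of 8 choroid plexus markers and 2 of 8 of the GABAergic interneuron lineage rose and 0 fell. At that step 7 of 12 astrocyte markers fell and 2 rose, 3 of 7 Bergmann glia markers fell, and 1 of 18 replication and mitosis genes was called higher, with a median of 0.69. From P7 to P14 all 18 replication and mitosis genes fell, with a median of -4.46, and they were also highest at P7 in their summed count. Of 8 markers of the GABAergic interneuron lineage 7 fell, with summed counts of 4418 to 8984 at P7 and 472 to 703 at P14, and of 8 markers of granule neuron precursors 2 fell (13954 to 15456 and 8198 to 11578). At the same step 9 of 12 astrocyte markers rose and 1 fell, 4 of 7 Bergmann glia markers, 10 of 10 oligodendrocyte markers and 7 of 12 neuron markers rose, with 1 neuron marker lower, and 4 of 8 markers of oligodendrocyte precursors rose and 1 fell. Purkinje cell, microglia and endothelial markers had 2 of 6, 2 of 10 and 1 of 8 higher, immediate early genes 1 of 11 higher and 1 lower, and choroid plexus markers 0 of 8 called, though their summed count ran from 893 to 110195 between P14 libraries. Of 7 red blood cell markers 1 was tested and it was not called. Atoh1 and Ptf1a were at 0 in all P14 libraries, and Cdk1 in all P28 libraries. At P14 the oligodendrocyte sum was above the astrocyte sum in every library. From P14 to P28, when the median change of the 31 genes was -0.055, 8 of 10 oligodendrocyte markers, 9 of 18 replication and mitosis genes, 8 of 11 immediate early genes, 5 of 8 markers of oligodendrocyte precursors and 3 of 12 neuron markers fell, and 9 of 12 astrocyte markers and 5 of 7 Bergmann glia markers rose. Between P1 and P28 all 18 replication and mitosis genes fell, with a median of -6.22, while 10 of 12 astrocyte markers rose and 2 fell and 10 of 10 oligodendrocyte markers rose. The part of these changes in the SR and hnRNP results was not tested.

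**Figure D5:**
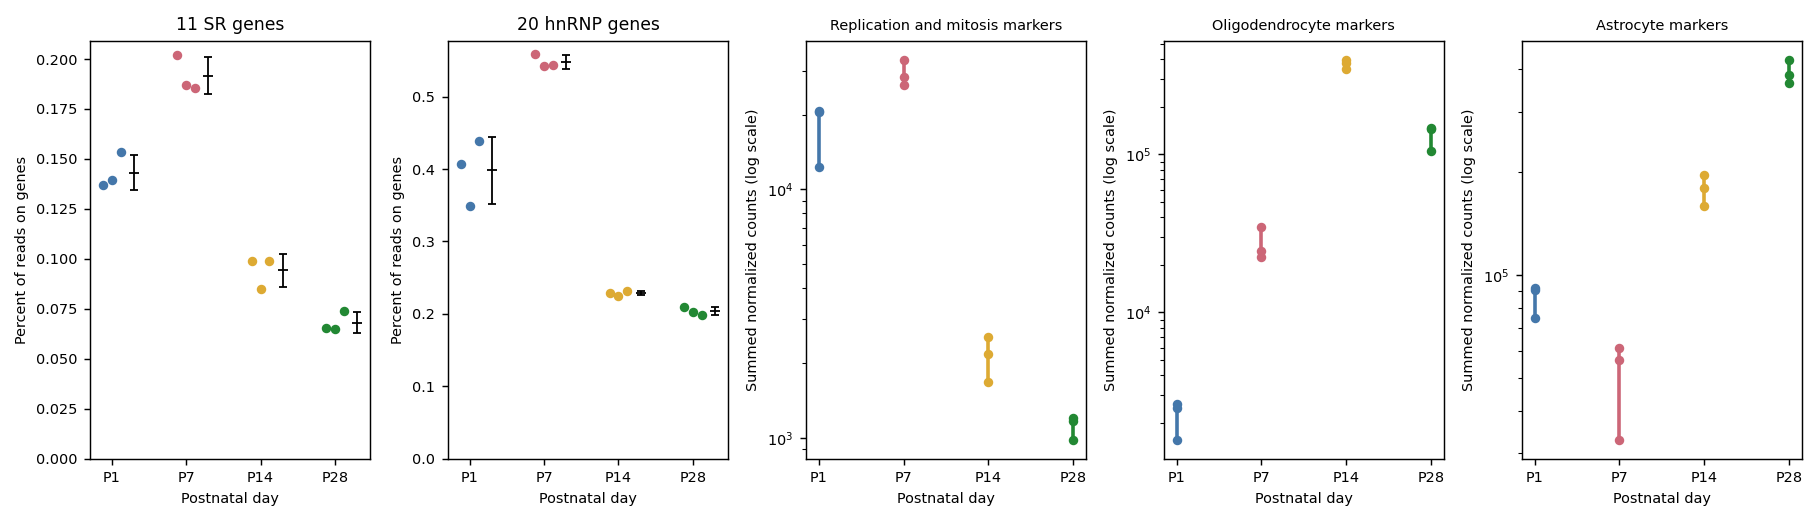
Share of reads (percent, from 0) taken by the 11 SR and the 20 hnRNP genes in each library (dots, with mean and SD, n = 3), and summed normalized counts (log scale) of replication and mitosis, oligodendrocyte and astrocyte markers (dots are the lowest, middle and highest library, joined by a line). The SR and hnRNP shares and the replication markers are highest at P7, where the astrocyte sum is lowest at 32915 to 61169.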

How the data were processed

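GFP-positive cerebellar cells were collected by flow cytometry in the study, and RNA (RNeasy Micro, 10 ng into the Trio RNASeq kit) was sequenced in paired ends. Per the study's methods and the processing notes in the labels, the authors aligned reads to mm10 with STAR 2.5.0a, counted them on UCSC transcripts with GenomicAlignments, and deposited the signal as read counts divided by 1 DESeq2 size factor per library (DESeq2 1.30.1 in the notes). Use of strand and of shared reads is not stated. All column names carry P28, so groups rest on the labels. Every value was a whole multiple of 1 read (100% within 0.01), and 0 columns were left over.

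Of 24421 entries, 15464 reached a value of 10 in 3 or more of the 12 libraries and were tested with limma 3.58.1 (R 4.3.3) on log2(value + 1), in 1 fit with empirical Bayes moderation and a trend, with Benjamini-Hochberg adjustment over all genes tested. A fold change on this scale understates that of low genes. edgeR 4.0.16 and DESeq2 1.42.0 on recovered reads, other scalings, filters and pseudocounts, and omission of each library were alternatives. The fit was tested on simulated data. Depth was 6399499 to 14733985 reads on genes, and a count of 0 allows up to 3 reads, for counting error only. Named genes were those called in any comparison, with other members given mainly by ranges, and from each list up to 2 genes of the highest mean and 2 called genes of the largest change. The SR and hnRNP genes and all lists were chosen with earlier results of these data known. Promoters were RefSeq windows on GRCm38.p6, and exon lengths and shared stretches of 75 bases came from GENCODE annotation.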

Additional observations from a re-analysis of the deposited data

How the results depend on the processing

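No called change of an SR or hnRNP gene turned in sign under the alternatives run, nor did the median of the 31 genes in any comparison. Changes that were not called did so in some genes, most of them from P14 to P28 (Srsf5 and Hnrnph3 under 4 alternatives each), and so did the median relative to all genes at that step, from 0.067 to values as low as -0.10. Of the alternatives that scaled differently, library totals alone moved the median log2 fold change of the 31 genes to -1.20 from P7 to P14, -0.29 from P14 to P28 and -0.98 from P1 to P28. Library totals also gave 0 genes higher and 5 lower from P14 to P28 and 27 lower from P1 to P28. The share of all genes called under this scaling was not taken. The single rise from P14 to P28 (Hnrnpk) became 0 with edgeR under TMM or DESeq2 size factors, TMM scaling in limma, no filter, only the 2 time points compared, and a threshold of an unadjusted p under 0.05 with a log2 fold change over 0.75 (the study states these cut-offs without the log scale or whether p was adjusted). With only the 2 time points compared, 0 genes were lower from P14 to P28 and 8 from P1 to P28. Leaving out 1 library at a time gave 1 to 6 genes higher from P1 to P7, 16 to 23 lower from P7 to P14, 0 to 1 higher and 0 to 3 lower from P14 to P28, and 10 to 19 lower from P1 to P28. Libraries of the same replicate number deviated together at most weakly (correlations -0.029 to 0.14, median 0.031, over 0.1 in 1 of 18 pairs). Pairs of other numbers had correlations of -0.10 to 0.054 (median -0.011). Correlations over all genes cannot settle whether the numbers pair the samples. With the replicate block 0 genes were higher from P14 to P28, and the calls of Hnrnpl (P7 to P14) and Hnrnpa2b1 (P1 to P28) were lost, while Hnrnpa0 was called lower from P1 to P28 (log2 fold change -0.76, limma adjusted p = 0.0387). Some of these fits hold fewer libraries, and the cause of these changes was not tested.

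The 3 libraries per age and the spread at P28 limit the calls, and low genes such as Srsf12, Hnrnph3 and Hnrnpa1 have wide intervals. Isoforms, cell composition and RNA content per cell cannot be told apart in these counts.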
